A study of Mus musculus with 9 samples.

Results

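The genes of NRF2, its inhibitor KEAP1, NRF1, BACH1, BACH2, MAF and the small MAF proteins MAFF, MAFG and MAFK were followed in macrophages loaded with lipid particles. These 9 genes were chosen by name, with earlier results of these data known, from the 54432 genes of the gene-level table. All 9 were among the 12637 genes with more than 10 estimated counts in at least 3 libraries, which were tested. The cells were RAW 264.7 macrophages, a mouse macrophage-like line grown from a virus-induced tumour, so a single line stands for macrophages here. Cells were left untreated (CTRL), or received VLDL-sized emulsion particles (VLDLsep) or chylomicron-sized emulsion particles (CHYLsep) at 1 mM for 6 hours. The particles are artificial lipid emulsions made to the size of the lipoproteins that carry triglycerides in blood. Each of the 3 groups had 3 RNA-seq libraries, and samples of each condition within an experiment had been pooled before sequencing.

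NRF2 (Nfe2l2) and NRF1 (Nfe2l1) are cap'n'collar transcription factors that bind DNA only as partners of a small MAF protein, at antioxidant response elements in front of genes for glutathione synthesis, heme breakdown and proteasome subunits. KEAP1 hands NRF2 to a ubiquitin ligase in unstressed cells, and BACH1 and BACH2 take the same small MAF partners to the same elements as repressors, with heme releasing BACH1 from DNA. MAF is a large MAF protein with its own activation domain, which supports mature macrophage genes. NRF2, NRF1 and BACH1 are controlled largely through protein stability, which RNA counts do not measure.

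The libraries held between 22393893 and 22856792 estimated counts. Levels are given as cpm, which are counts scaled to a common library size. All 10 macrophage markers were expressed, with a summed level of 7398 to 7487 cpm in CTRL, 6656 to 6968 in VLDLsep and 6865 to 7168 in CHYLsep. The defining genes of other cell types were at or near 0: no T cell marker exceeded 7 counts and no B cell marker 2 counts in a library, the 4 epithelial markers had 0 counts, and of 5 fibroblast markers only Pdgfra, with at most 55 counts, passed the filter. In bulk RNA, fewer cells of a kind and less RNA per cell cannot be told apart.

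Both particles changed most of the 9 genes. Bach1 and the small MAF gene Maff rose more than 2-fold with either particle, Mafg rose by about 1.5-fold, and Maf fell to a small part of its control level. Nfe2l2 itself did not pass the test with either particle. After VLDL-sized particles 8 of the 9 genes passed an adjusted p of 0.05 (limma-voom, Benjamini-Hochberg over all genes tested), 6 of them higher and 2 lower, where 35.6% of all genes tested passed, 17.8% higher and 17.9% lower. After CHYL-sized particles 6 of 9 passed, 4 higher and 2 lower, against 25.7% of all genes, 12.7% higher and 13% lower. For 8 of the 9 genes the 3 VLDLsep libraries did not overlap the 3 CTRL libraries, against 47.4% of all genes, and for 7 of 9 the CHYLsep libraries did not, against 41.7%. Both comparisons use the same CTRL libraries, so they are not independent of each other. Because the genes were chosen with earlier results of these data known, the shares of all genes are a description beside them and not a test of the set.

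**Figure D1:**
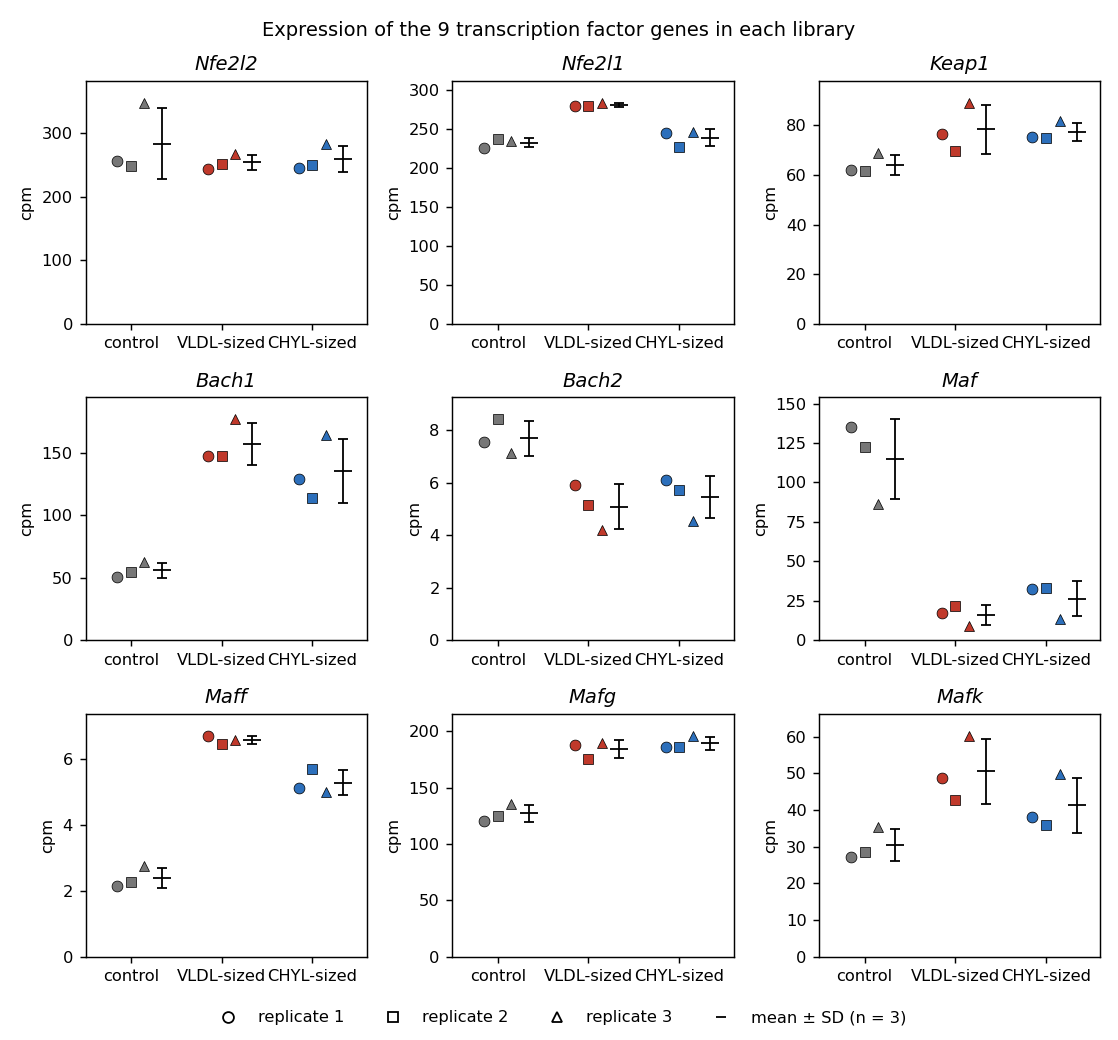
Normalised expression (cpm, from 0 on each vertical axis) of the 9 genes in control, VLDL-sized and CHYL-sized libraries, with a marker shape for each replicate number and the mean ± SD (n = 3) beside the points. Bach1, Maff and Mafg sit above control in all 6 particle libraries, Maf and Bach2 sit below it, and Nfe2l2 overlaps it.

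Replicate 3 stood apart within each group. It was the highest library of all 3 groups for Nfe2l2, Keap1, Bach1, Mafg and Mafk and the lowest of all 3 for Bach2 and Maf. Among all genes tested, 18.8% had replicate 3 highest and 19.2% had it lowest in every group.

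The genes differed widely in level before treatment. Levels between genes are compared as cpm per kb of the longest annotated transcript. In CTRL, Nfe2l2 was the most abundant at 115 ± 22.3 cpm per kb (SD, n = 3), followed by Nfe2l1 at 49.95 ± 1.27, Mafg at 25.8 ± 1.59, Maf at 18.0 ± 3.96 and Keap1 at 17.7 ± 1.11. Mafk at 9.81 ± 1.41 and Bach1 at 9.54 ± 1.00 came next, and Maff at 1.22 ± 0.161 and Bach2 at 0.866 ± 0.0742 were lowest. Neighbours in this order had separate libraries except Maf and Keap1, and Mafk and Bach1, whose ranges overlapped. After VLDL-sized particles Bach1 stood in place 4 at 26.8 ± 2.91 cpm per kb and Maf in place 8 at 2.51 ± 1.02, next to Maff at 3.37 ± 0.0613, whose range overlapped that of Maf. After CHYL-sized particles Bach1 was again in place 4 at 23.1 ± 4.40 cpm per kb, with a range that overlapped that of Keap1, and Maf in place 7 at 4.14 ± 1.78, overlapping Maff at 2.70 ± 0.191. Nfe2l2, Nfe2l1 and Mafg kept places 1 to 3 in all 3 groups.

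Stretches before RefSeq start sites were searched for the letters that these factors bind, because the factors are known to act on each other's genes. RefSeq gave a start site on GRCm38.p6 for 8 of the 9 genes, Maf being the exception, with 14 windows of 250 bases before the start. The antioxidant response element core TGACNNNGC, where N is any base, was searched on either strand. It was found in 4 of the 14 windows, 1 each of Nfe2l2, Maff, Mafg and Mafk, and in 10.2% of 32851 such windows of all genes. The MAF half-site TGCTGA was found in windows of Nfe2l1, Bach1 and Mafk and in 16.1% of all windows. For Nfe2l1 the same sites recur in windows that overlap, all of them before start sites inside the annotated gene. The Nfe2l1 windows nearer its 5′ end, chr11:96829503-96829752 and chr11:96829969-96830218, had no half-site. The only Bach2 window, chr4:32417185-32417434, also lies inside the annotated gene and not in front of it. The TRE core TGANTCA was found in no window of the 8 genes and in 6.75% of all windows. These percentages count windows and not genes, and a gene with several windows has more places for a match. The 3 motifs can overlap each other, and a match is a description of letters, not a bound site. The windows with an antioxidant response element core are shown with it in capitals, each 5′ to 3′ on the gene's own strand, because they belong to NRF2 itself and to its 3 small MAF partners. Bach1 is shown beside them as a gene that rose more than 2-fold with either particle, with its MAF half-site in capitals. The Maff stretch is chr15:79346371-79346620 on the plus strand, the Mafg stretch chr11:120633601-120633797 on the minus strand, the Nfe2l2 stretch chr2:75704664-75704913 on the minus strand and the Bach1 stretch chr16:87698704-87698944 on the plus strand, all outside the gene's own annotated exons. The short Mafk stretch, chr5:139791513-139791535 on the plus strand, lies before the RefSeq start but inside the first exon of the longer GENCODE model of Mafk.
Maff: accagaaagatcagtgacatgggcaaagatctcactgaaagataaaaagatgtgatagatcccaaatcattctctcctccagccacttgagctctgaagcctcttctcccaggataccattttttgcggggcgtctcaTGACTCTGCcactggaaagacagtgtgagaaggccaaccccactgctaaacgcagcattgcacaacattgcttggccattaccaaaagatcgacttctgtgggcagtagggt
Mafg: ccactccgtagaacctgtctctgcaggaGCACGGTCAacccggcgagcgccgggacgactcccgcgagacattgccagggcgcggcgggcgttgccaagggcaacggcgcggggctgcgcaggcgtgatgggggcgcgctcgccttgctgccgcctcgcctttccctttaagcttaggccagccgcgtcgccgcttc
Mafk: gatcccggaaGCGGTGTCAgtac
Nfe2l2: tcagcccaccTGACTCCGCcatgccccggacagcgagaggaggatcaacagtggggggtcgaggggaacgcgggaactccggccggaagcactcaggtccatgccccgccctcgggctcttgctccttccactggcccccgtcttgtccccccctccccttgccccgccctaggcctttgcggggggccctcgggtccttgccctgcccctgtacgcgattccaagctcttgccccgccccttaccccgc
Bach1: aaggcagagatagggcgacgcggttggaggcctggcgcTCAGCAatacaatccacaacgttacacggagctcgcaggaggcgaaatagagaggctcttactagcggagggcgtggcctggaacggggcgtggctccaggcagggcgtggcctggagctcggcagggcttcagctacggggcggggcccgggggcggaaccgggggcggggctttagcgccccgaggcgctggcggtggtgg
The core lies 112 to 104 bases before the start of Maff, 222 to 214 before Mafg, 13 to 5 before Mafk and 240 to 232 before Nfe2l2. It is on the strand opposite to the gene in Mafg and Mafk, and on the gene's strand in Maff and Nfe2l2. Of these 4 genes, the 3 small MAF genes rose after VLDL-sized particles and Nfe2l2 did not pass the test. Bach1, Keap1 and Nfe2l1, with no core in their windows, also rose, and Bach2, with none in its window inside the gene, fell. After CHYL-sized particles Maff and Mafg passed, as did Bach1, Keap1 and Bach2, while Mafk, Nfe2l2 and Nfe2l1 did not. Whether the core bears on these changes was not tested.

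Nfe2l2 (ENSMUSG00000015839, chr2:75675513-75704641, minus strand) encodes NRF2, the activator of the antioxidant response. Its level was 256, 248 and 347 cpm in the CTRL libraries, 244, 251 and 267 cpm in VLDLsep and 245, 250 and 283 cpm in CHYLsep. The CTRL replicate 3 library was the highest of the 9, and the remaining 8 libraries lay close together with all groups overlapping. The log2 fold change was -0.14 with VLDL-sized particles (95% interval -0.39 to 0.11, adjusted p = 0.37) and -0.11 with CHYL-sized particles (-0.37 to 0.14, adjusted p = 0.51). Without CTRL replicate 3 both values changed sign, to 0.013 and 0.040.

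Keap1 (ENSMUSG00000003308, chr9:21229730-21239361, minus strand), whose protein holds NRF2 back, was at 61.8, 61.7 and 68.7 cpm in CTRL, at 76.6, 69.5 and 88.9 cpm in VLDLsep and at 75.4, 74.8 and 81.6 cpm in CHYLsep. Every particle library lay above every CTRL library, by little for VLDLsep replicate 2. Keap1 rose 1.22-fold with VLDL-sized particles (log2 fold change 0.28, SE 0.087, adjusted p = 0.026) and 1.21-fold with CHYL-sized particles (0.27, SE 0.087, adjusted p = 0.042). Both calls were near the threshold. The VLDLsep call was lost without CTRL replicate 1 or 2 or VLDLsep replicate 1 or 3 (adjusted p = 0.054 to 0.086), the CHYLsep call without CTRL replicate 1 or 2, VLDLsep replicate 1 or any 1 CHYLsep library (0.059 to 0.13) or without the filter on low counts (0.066), and both with library size alone as the scaling, where the log2 fold changes were 0.19 and 0.19.

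Nfe2l1 (ENSMUSG00000038615, chr11:96817414-96829968, minus strand) encodes NRF1, which is anchored in the endoplasmic reticulum and drives proteasome genes when proteasomes fall short. It was at 226, 237 and 235 cpm in CTRL, at 280, 280 and 283 cpm in VLDLsep and at 245, 226.8 and 246 cpm in CHYLsep. The VLDLsep libraries were tightly grouped above all others, and CHYLsep overlapped CTRL. Nfe2l1 rose 1.21-fold with VLDL-sized particles (log2 fold change 0.27, SE 0.047, adjusted p = 0.0011). With CHYL-sized particles its log2 fold change was 0.04 (95% interval -0.06 to 0.14, adjusted p = 0.58), and -0.040 with library size alone as the scaling.

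Bach1 (ENSMUSG00000025612, chr16:87698945-87733346, plus strand), the heme-sensing repressor of Hmox1, rose about as much as Maff, and which of them rose more depended on the libraries of replicate 3. It was at 50.9, 54.6 and 62.4 cpm in CTRL, at 147, 147 and 177 cpm in VLDLsep and at 129, 114 and 164 cpm in CHYLsep. The lowest particle library was well above the highest CTRL library. Bach1 rose 2.80-fold with VLDL-sized particles (log2 fold change 1.49, SE 0.13, adjusted p = 1.5e-05) and 2.40-fold with CHYL-sized particles (1.27, SE 0.13, adjusted p = 8.2e-05). Over 19 alternative settings its log2 fold change stayed between 1.39 and 1.57 for VLDLsep and between 1.120 and 1.38 for CHYLsep. Without all 3 replicate 3 libraries it was 1.48 and 1.201, below the 1.57 and 1.29 of Maff.

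Bach2 (ENSMUSG00000040270, chr4:32238804-32586108, plus strand), a repressor best known from lymphocytes, went the opposite way from a low level. It was at 7.55, 8.42 and 7.12 cpm in CTRL, at 5.93, 5.14 and 4.20 cpm in VLDLsep and at 6.10, 5.73 and 4.56 cpm in CHYLsep, from 92.4 to 200 estimated counts in a library. All 6 particle libraries lay below all CTRL libraries. Bach2 was 1.52-fold lower with VLDL-sized particles (log2 fold change -0.60, SE 0.15, adjusted p = 0.0098) and 1.41-fold lower with CHYL-sized particles (-0.50, SE 0.15, adjusted p = 0.031). The CHYLsep call was lost without CTRL replicate 1 or 2 or CHYLsep replicate 2 or 3 (adjusted p = 0.06 to 0.11) and without the filter on low counts (0.057).

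Maf (ENSMUSG00000055435, chr8:115682942-115707794, minus strand) changed more than any other of the 9 genes. It was at 135, 123 and 86.6 cpm in CTRL, at 17.4, 21.6 and 8.88 cpm in VLDLsep and at 32.5, 33.2 and 13.3 cpm in CHYLsep. Replicate 3 was the lowest library of each group, and the highest particle library was still far below the lowest CTRL library. Maf was 7.53-fold lower with VLDL-sized particles (log2 fold change -2.91, SE 0.37, adjusted p = 0.00017) and 4.63-fold lower with CHYL-sized particles (-2.21, SE 0.33, adjusted p = 0.00074). Over the 19 alternatives the log2 fold change ranged from -3.18 to -2.54 for VLDLsep and from -2.43 to -1.78 for CHYLsep.

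Mafg (ENSMUSG00000051510, chr11:120625117-120633600, minus strand) was the most abundant small MAF gene per kb. It was at 121, 125 and 136 cpm in CTRL, at 188, 175 and 190 cpm in VLDLsep and at 186, 186 and 196 cpm in CHYLsep. The groups of both particles were above CTRL and overlapped each other. Mafg rose 1.45-fold with VLDL-sized particles (log2 fold change 0.54, SE 0.057, adjusted p = 4.9e-05) and 1.49-fold with CHYL-sized particles (0.58, SE 0.057, adjusted p = 5.3e-05).

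Maff (ENSMUSG00000042622, chr15:79346621-79359076, plus strand) is the stress-inducible small MAF gene and was the least abundant of them. It was at 2.14, 2.28 and 2.74 cpm in CTRL, at 6.71, 6.47 and 6.60 cpm in VLDLsep and at 5.14, 5.72 and 5.02 cpm in CHYLsep, from 51 to 147 counts in a library. The 3 groups did not overlap, with VLDLsep highest and CTRL lowest. Maff rose 2.76-fold with VLDL-sized particles (log2 fold change 1.47, SE 0.13, adjusted p = 1.8e-05) and 2.22-fold with CHYL-sized particles (1.15, SE 0.14, adjusted p = 0.00019).

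Mafk (ENSMUSG00000018143, chr5:139791513-139802653, plus strand) was at 27.2, 28.7 and 35.4 cpm in CTRL, at 48.8, 42.7 and 60.3 cpm in VLDLsep and at 38.1, 35.9 and 49.8 cpm in CHYLsep. Both particle groups lay above CTRL, but the lowest CHYLsep library exceeded the highest CTRL library by less than the spread within either group. Mafk rose 1.66-fold with VLDL-sized particles (log2 fold change 0.73, SE 0.16, adjusted p = 0.0041). With CHYL-sized particles its log2 fold change was 0.44 (SE 0.16, 95% interval 0.08 to 0.79, adjusted p = 0.068). That value passed the threshold without CTRL replicate 3 (adjusted p = 0.04), without VLDLsep replicate 3 (0.036), without all 3 replicate 3 libraries (0.0012) and in DESeq2 (0.024).

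**Figure D2:**
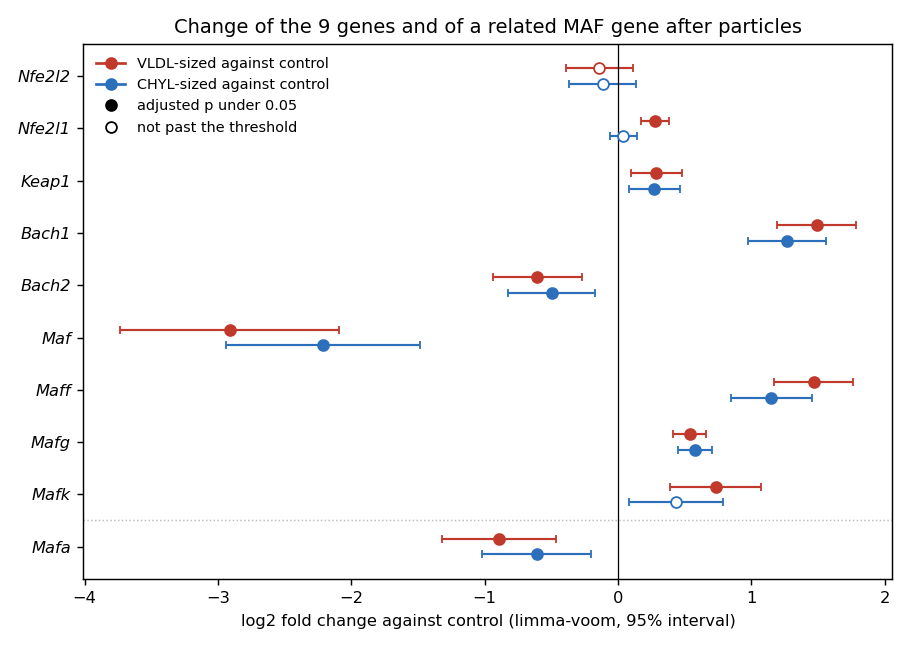
Log2 fold change against control with its 95% interval (limma-voom) for the 9 genes and, under the dotted line, Mafa, with red for VLDL-sized and blue for CHYL-sized particles. Filled points passed an adjusted p of 0.05, and Maf stands far to the left at -2.91 and -2.21, opposite Bach1 at 1.49 and 1.27 and Maff at 1.47 and 1.15.

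Relatives outside these genes were low or silent where they are given here. Nfe2 and Nfe2l3 had at most 3 counts in a library and Nrl had 0. Mafa, a large MAF gene of pancreatic beta cells, had 30 to 79 counts in a library and fell with VLDL-sized particles by 0.89 on the log2 scale (adjusted p = 0.0045). With CHYL-sized particles Mafa fell by 0.61 (adjusted p = 0.032), a call that was lost without CTRL replicate 1 or 3 or any 1 CHYLsep library (0.057 to 0.11), without all 3 replicate 3 libraries (0.072), in DESeq2 (0.061) and without the filter on low counts (0.071).

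RNA ratios between partners and opponents were taken within each library and compared between groups. These ratios of cpm per kb are descriptions without a test, and they do not measure the proteins. Per 100 units of Nfe2l2 there were 8.43 ± 0.859 units of Bach1 in CTRL (SD, n = 3), 26.0 ± 1.68 in VLDLsep and 21.97 ± 2.62 in CHYLsep, and no library of a particle group reached down to the CTRL range. Per 100 units of Nfe2l2 there were 15.7 ± 1.89 units of Keap1 in CTRL, 21.1 ± 1.97 in VLDLsep and 20.4 ± 0.690 in CHYLsep, again without overlap between CTRL and either particle. The 3 small MAF genes together rose from 36.9 ± 3.15 cpm per kb in CTRL to 57.2 ± 4.33 in VLDLsep and 54.5 ± 3.47 in CHYLsep. Mafg made up 70.2% of that sum in CTRL, 65.6% in VLDLsep and 70.7% in CHYLsep, and Mafk 26.5%, 28.5% and 24.3%, with overlapping ranges across groups except for Mafg between CTRL and VLDLsep and between VLDLsep and CHYLsep. The share of Maff was 3.30% ± 0.149 in CTRL, 5.91% ± 0.392 in VLDLsep and 4.98% ± 0.599 in CHYLsep, above CTRL in all 6 particle libraries. Bach1 was at 25.8 ± 0.532 units per 100 of summed small MAF in CTRL, 46.8 ± 2.82 in VLDLsep and 42.2 ± 5.39 in CHYLsep.

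**Figure D3:**
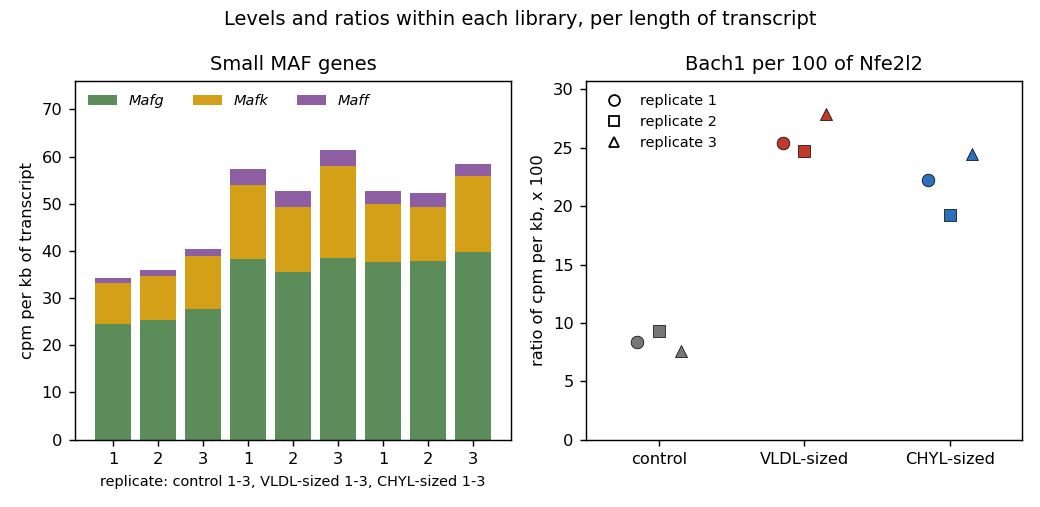
The left panel stacks Mafg, Mafk and Maff (cpm per kb of transcript) in each of the 9 libraries, and the right panel shows Bach1 per 100 of Nfe2l2 in each library, both axes from 0. Bach1 per 100 of Nfe2l2 runs from 7.58 to 9.30 in control and from 19.2 to 27.9 in the particle libraries.

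Whether particle size mattered was asked by comparing VLDLsep with CHYLsep in the same fit. None of the 9 genes passed an adjusted p of 0.05, and neither did any other gene (0% of 12637), while 813 genes (6.43%) had an unadjusted p under 0.05. edgeR's quasi-likelihood test also called 0 genes and DESeq2 24. For Nfe2l1 the VLDLsep libraries lay above the CHYLsep libraries by 0.23 on the log2 scale (95% interval 0.13 to 0.34, unadjusted p = 0.00047, adjusted p = 0.5), and DESeq2 called it (adjusted p = 0.014). For Maff the difference was 0.32 (0.07 to 0.56, unadjusted p = 0.016, adjusted p = 0.66). These 2 of the 9 genes had groups that did not overlap, as did 11.3% of all genes. The difference for Maf was -0.70 with a wide interval of -1.62 to 0.22 (adjusted p = 0.83). Replicate 3 was the lowest library of both groups, and without all 3 replicate 3 libraries the difference was -0.76 (adjusted p = 0.0016). Without those libraries Nfe2l1 (0.25, adjusted p = 0.02) and Bach1 (0.28, adjusted p = 0.031) also passed. For Mafg the difference was -0.04 (-0.16 to 0.09), for Nfe2l2 -0.03 (-0.28 to 0.22) and for Keap1 0.01 (-0.18 to 0.20). For Bach1 it was 0.22 (-0.06 to 0.50), for Mafk 0.29 (-0.04 to 0.63) and for Bach2 -0.11 (-0.47 to 0.25).

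The genes around these factors were read from lists of known targets and regulators, chosen with earlier results of these data known. Among all genes tested, 17.8% rose and 17.9% fell after VLDL-sized particles, and 12.7% rose and 13% fell after CHYL-sized particles. Of 34 NRF2 target genes 29 were tested, and 27 of them rose and 0 fell after VLDL-sized particles, with a median log2 fold change of 1.79 where the median of all genes tested was 0.00. After CHYL-sized particles 27 rose and 0 fell, with a median of 1.71. Hmox1, which opens heme to free its iron, was at 203, 252 and 334 cpm in CTRL, at 7097, 6440 and 7806 cpm in VLDLsep and at 4656, 5045 and 7015 cpm in CHYLsep. No particle library came near the CTRL range. Its log2 fold change was 4.78 (SE 0.18, adjusted p = 3.9e-08) with VLDL-sized and 4.41 (SE 0.18, adjusted p = 9e-08) with CHYL-sized particles. Slc7a11, the cystine importer, rose by 4.56 (SE 0.44, adjusted p = 2.3e-05) and 4.12 (SE 0.44, adjusted p = 8.5e-05). The glutathione transferase gene Gsta3 had 2 to 5 counts in a CTRL library and 228 to 304 in a particle library, and the quinone reductase gene Nqo1 had 1 to 6 counts in CTRL and 90 to 128 after particles, so both calls (adjusted p = 2.5e-06 and 1.9e-05 for VLDLsep) rest on a start close to 0.

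All 8 heme and iron genes linked to BACH1 rose with both particles, with medians of 2.34 for VLDLsep and 2.30 for CHYLsep, and 6 of the 8 also stand in the NRF2 list. Of all genes tested, 17.8% rose with VLDL-sized and 12.7% with CHYL-sized particles. Genes that BACH1 is known to repress were thus higher in the same 2 particle groups in which Bach1 RNA was higher than in CTRL. Gclm, the regulatory subunit of the enzyme that starts glutathione synthesis, rose by 3.15 (SE 0.054, adjusted p = 1.7e-10) and 3.11 (SE 0.054, adjusted p = 2e-10) on the log2 scale. Slc40a1, the iron exporter ferroportin, was at 60.1, 68.2 and 61.4 cpm in CTRL, at 449, 462 and 305 cpm in VLDLsep and at 445, 417 and 322 cpm in CHYLsep. Replicate 3 was the lowest library of both particle groups for Slc40a1, where it was the highest for Bach1. All 6 particle libraries lay above CTRL. Slc40a1 rose by 2.66 (SE 0.16, adjusted p = 1.5e-06) and 2.63 (SE 0.16, adjusted p = 2.1e-06).

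The 34 proteasome genes linked to NRF1 moved by less and in a single direction. Of all genes tested, 17.8% rose with VLDL-sized and 12.7% with CHYL-sized particles. After VLDL-sized particles 29 rose and 0 fell (median 0.29), and after CHYL-sized particles 21 rose and 0 fell (median 0.25), although Nfe2l1 passed the test only with VLDL-sized particles and the difference between the particles was not past the threshold. Psmd11, a lid subunit, rose by 1.16 (SE 0.094, adjusted p = 8.4e-06) and 1.01 (SE 0.094, adjusted p = 3.6e-05). Psma5, a core subunit, rose by 0.78 (adjusted p = 1.1e-06) and 0.67 (adjusted p = 4.3e-06), and Psmc1, a base ATPase, by 0.60 (adjusted p = 0.00026) and 0.48 (adjusted p = 0.0018). Psme4, the activator PA200, rose by 0.60 (adjusted p = 0.00026) with VLDL-sized particles, and Psmd1, a base subunit, by 0.48 (adjusted p = 2.2e-05) with CHYL-sized particles.

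Of 17 genes that control the turnover of the NRF1, NRF2 and BACH1 proteins, 8 rose and 2 fell after VLDL-sized particles (median 0.22), and 7 rose and 0 fell after CHYL-sized particles (median 0.18). Of all genes tested, 35.6% passed with VLDL-sized particles (17.8% higher, 17.9% lower) and 25.7% with CHYL-sized particles (12.7% higher, 13% lower). Without CTRL replicate 1 the number called was 6 for VLDLsep and 4 for CHYLsep, and it was also 4 for CHYLsep without CTRL replicate 2 or CHYLsep replicate 1. Sqstm1, which encodes the autophagy receptor p62 that binds KEAP1, was at 388, 398 and 530 cpm in CTRL, at 1619, 1524 and 1865 cpm in VLDLsep and at 1357, 1358 and 1600 cpm in CHYLsep. Every particle library lay far above the highest CTRL library. Sqstm1 rose by 1.94 (SE 0.12, adjusted p = 1.5e-06) and 1.72 (SE 0.12, adjusted p = 4.8e-06) on the log2 scale. Sesn2, a stress gene whose protein works with p62 on KEAP1, rose by 1.505 with VLDL-sized particles (SE 0.26, adjusted p = 0.0012). With CHYL-sized particles Sesn2 was 0.89 higher (SE 0.27, adjusted p = 0.037), but CTRL replicate 3 at 25.4 cpm lay above CHYLsep replicates 1 and 2 at 24.8 and 23.8 cpm, and the call was lost in 9 of the 19 alternatives, among them edgeR (0.054), DESeq2 (0.086) and leaving out CTRL replicate 1 (0.13) or 2 (0.14), VLDLsep replicate 1 (0.053) or 2 (0.051), or CHYLsep replicate 1 (0.052) or 3 (0.1). Gsk3b, the kinase that marks NRF2 for another ligase, rose by 0.53 (adjusted p = 1.1e-05) and 0.40 (adjusted p = 0.00012), and Vcp, which extracts NRF1 from the membrane, by 0.43 (adjusted p = 0.00011) and 0.35 (adjusted p = 0.00071). The 2 genes that fell after VLDL-sized particles were Ddi2, the protease that activates NRF1, by 0.15 (adjusted p = 0.03), and Dpp3, a KEAP1 binder, by 0.21 (adjusted p = 0.015); they are named because they were so few.

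Of 8 macrophage genes linked to MAF 7 were tested. Among all genes tested, 17.8% rose and 17.9% fell after VLDL-sized particles, and 12.7% rose and 13% fell after CHYL-sized particles. The 3 genes of complement C1q fell with both particles, C1qa by 1.04 (SE 0.078, adjusted p = 5e-06) and 0.85 (SE 0.077, adjusted p = 2.6e-05), C1qc by 0.52 (adjusted p = 0.00013) and 0.45 (adjusted p = 0.00057), and C1qb by 0.46 (adjusted p = 0.00044) and 0.39 (adjusted p = 0.0019). C1qa was at 111, 108 and 124 cpm in CTRL, at 54.5, 53.1 and 59.4 cpm in VLDLsep and at 63.1, 68.9 and 57.8 cpm in CHYLsep, without overlap between CTRL and either particle. The scavenger receptor gene Cd36 had 1 to 5 counts in a CTRL library and 7 to 13 in a CHYLsep library (adjusted p = 0.041), too few for a firm size; it is named because no other gene of the list rose. Il10, Csf1r and Adgre1 did not pass the test with either particle. The list's median was -0.46 for VLDLsep and -0.39 for CHYLsep. No gene of the lists above passed between VLDLsep and CHYLsep. Csf1r and Adgre1 also stand among the macrophage markers, of which 1 rose and 5 fell after VLDL-sized and 2 fell after CHYL-sized particles; their part in the fall of Maf was not tested.

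**Figure D4:**
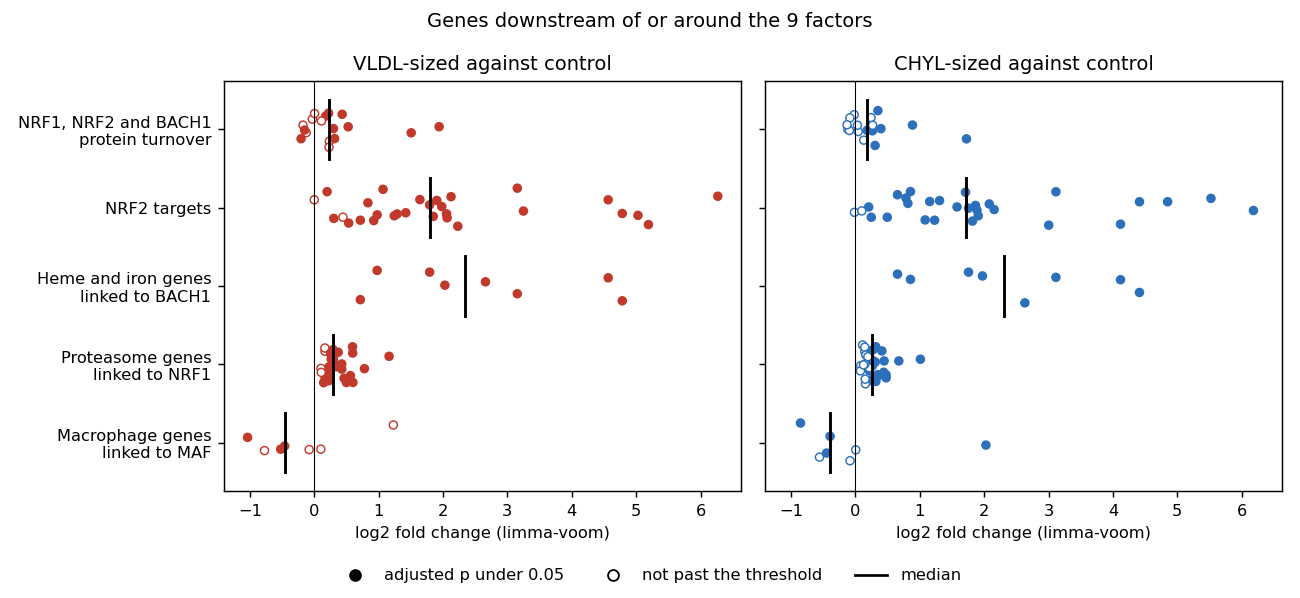
Log2 fold change against control (limma-voom) of each tested gene of the 5 lists, VLDL-sized particles on the left and CHYL-sized on the right, with black bars at the list medians and filled points for an adjusted p under 0.05. The NRF2 and heme lists lie far to the right of 0 (medians 1.79 and 2.34 for VLDL-sized), the proteasome list close to its right (0.29), and the MAF list has its median to the left (-0.46).

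The genes whose log2 cpm followed each factor most closely over the 9 libraries were sought among 10596 genes with a mean of at least 50 counts. The 9 libraries share 3 conditions and the contrast of replicate 3, so a high Pearson r describes that shared layout. Bach1 was closest to Abcb6 (r = 0.998), a porphyrin transporter, then Riok3. Maf was closest to Nfam1 (r = 0.998), Ccnd1 and Nhsl2. Nfe2l1 was closest to Atf6 (r = 0.954), a sensor of endoplasmic reticulum stress, then Uhrf1bp1 and Socs6. Nfe2l2, which did not follow the particles, was closest to the RNA-binding protein genes Syncrip (r = 0.980) and Hnrnpdl and to Cd44. Among the 9 genes themselves r was -0.981 between Bach1 and Maf, 0.967 between Bach1 and Mafg and -0.230 between Bach1 and Nfe2l2.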

How the data were processed

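RNA-seq was measured in 9 libraries of RAW 264.7 macrophages, 3 per group. Per the labels and the study's methods, the authors quantified transcripts with Salmon 0.14.1 against GRCm38.p6 (GENCODE M22) and deposited estimated counts per gene from tximport. The methods state a scaling for transcript length and library size, but 58.3% of values above 10 were whole, so the table was taken as unscaled, against that statement. If the values had been scaled, cpm and cpm per kb would hold that correction too. Depth was 22393893 to 22856792 estimated counts per library, and intervals cover the spread between libraries only, which may be technical, since the sources do not say which libraries came from separate cultures. The filter asked for over 10 counts in 3 or more of the 9 libraries. Genes that passed were fitted with limma-voom (limma 3.58.1, edgeR 4.0.16 TMM factors, R 4.3.3) in 1 model of group means, with Benjamini-Hochberg adjustment over 12637 genes, called at an adjusted p under 0.05. All adjusted p-values and fold changes are from that fit unless another tool is named. cpm used TMM-scaled library sizes, and cpm per kb the longest transcript of GENCODE M21. Lists were matched by symbol, 1 gene through an older symbol. Named genes were the 9 genes, their relatives, and up to 4 called genes per list and comparison with the largest change and averaging 50 counts or more where they were higher, plus genes named for their low number; some genes that this rule names are not reported here. The members and lists were chosen with earlier results of these data known. Scripts were tested on simulated data. Libraries with the same number deviated together for VLDLsep and CTRL (r = 0.138, 0.132 and 0.293, each above 0.1). VLDLsep replicate 2 and CTRL replicate 1 also did (r = 0.116). The number may therefore pair the samples of that comparison, which rests on the data and not on the design. The main fit did not pair them, and only the replicate block among the alternatives used the number. The 19 alternatives left out libraries, changed the scaling or the filter, fitted 2 groups alone, added a replicate block, or used DESeq2 1.42.0, limma-trend or edgeR's quasi-likelihood test. Promoter windows came from RefSeq.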

Additional observations from a re-analysis of the deposited data

How the results depend on the processing

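Over 19 alternatives the calls of Bach1, Maf, Maff and Mafg against CTRL kept their direction and their side of the threshold for both particles, as did those of Nfe2l1, Bach2 and Mafk for VLDLsep. Leaving out 1 library at a time gave 3488 to 4612 genes called and 7 to 8 of the 9 genes for VLDLsep against CTRL, 2337 to 3500 genes and 4 to 7 of the 9 for CHYLsep against CTRL, and 0 to 1 genes and 0 of the 9 between the particles, the 1 gene without VLDLsep replicate 3 or CHYLsep replicate 2. The replicate block (replicate number in the model) gave 6058 genes for VLDLsep, where it changed no call of the 9 genes, 4949 against 3249 for CHYLsep, and 147 against 0 between the particles, where 3 of the 9 genes passed (Nfe2l1, Maf and Mafk). For CHYLsep the block also brought in Mafk (0.44, adjusted p = 8.6e-05) and gave 11 turnover genes. The CHYLsep libraries share only a number with the others: same-number correlations were 0.124, 0.0684 and 0.338 with CTRL and 0.0286, 0.117 and 0.357 with VLDLsep, and not every library correlated best with its own number. Between the particles DESeq2 called 24 genes and 1 of the 9 (Nfe2l1), and the fit without all 3 replicate 3 libraries 232 genes and 3 of the 9 (Nfe2l1, Bach1 and Maf). Small values changed sign: Nfe2l2 against CTRL without CTRL replicate 3 (0.013 for VLDLsep, in a range of -0.23 to 0.013 over left-out libraries, and 0.040 for CHYLsep, in -0.20 to 0.040), and Nfe2l1 for CHYLsep with library size alone (-0.040), a scaling that moved the median of all genes by -0.094 for VLDLsep and -0.079 for CHYLsep. Between the particles Nfe2l2 did so without VLDLsep replicate 1 (0.0019), without CHYLsep replicate 3 (0.039) and without all 3 replicate 3 libraries (0.0027; range over left-out libraries -0.063 to 0.039), Keap1 without VLDLsep replicate 3 (-0.081), without CHYLsep replicate 2 (-0.0087) and without all 3 replicate 3 libraries (-0.042; range -0.081 to 0.097), and Bach2 without VLDLsep replicate 3 (0.023; range -0.23 to 0.023). The cause of these changes was not tested. At 51 to 200 estimated counts in a library, Maff and Bach2 carry more counting error than the other 7 genes in the same library. Maf also fell into that range in VLDLsep replicate 3, at 195 estimated counts.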
